A study of Mus musculus with 24 samples.

Results

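A set of 60 genes that drive DNA replication and mitosis was followed in the livers of mice with and without N-RAS, a small GTPase that relays growth factor signals. Genes were taken where an array probe set carried the symbol of that gene alone, which left 57 of 60 among the 21144 genes tested. These were 6 genes of G1/S control, 18 S phase genes and 33 mitosis genes. Ccnd1, Mcm7 and Foxm1 lay only on probe sets that also name further genes and were not analysed here.

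All livers came from mice labelled as male, which entered the experiments at 8 to 10 weeks of age and were bred on a C57BL/6J background. There were 8 groups of 3 arrays, 24 in all, and each array is labelled as the liver of a numbered mouse, so p-values measure the spread between these animals. In the first experiment N-RAS-/- BDL and N-RAS+/+ BDL mice underwent bile duct ligation (BDL), which blocks bile flow and causes cholestatic injury, while N-RAS-/- sham and N-RAS+/+ sham mice had the operation without ligation, and livers were taken on day 28. In the second, N-RAS-/- CCl4 and N-RAS+/+ CCl4 mice were injected with carbon tetrachloride (CCl4), a hepatotoxin, and N-RAS-/- oil and N-RAS+/+ oil mice with its corn oil vehicle, for 4 weeks. Values are log2 array signals as deposited. Since probes differ, levels are compared within a gene and not between genes.

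A dividing cell passes from G1 into S phase, when the MCM helicase loaded at origins unwinds the DNA for copying, and then into mitosis, when cyclin B with CDK1 starts the segregation of chromosomes and the central spindle guides cytokinesis. E2F factors drive many S phase genes, while promoters of many mitosis genes carry CHR elements and CCAAT boxes. Hepatocytes of the adult liver are mostly quiescent and can re-enter the cycle after injury, when cholangiocytes, stellate cells and immune cells also divide. In whole liver RNA, fewer cells of a type and less RNA per cell cannot be told apart.

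Array signal for Nras, the deleted gene, ran from 4.55 to 5.55 over the 12 N-RAS-/- arrays and from 5.92 to 8.04 over the 12 N-RAS+/+ arrays, without overlap. Hepatocyte markers averaged 12.22 to 12.89 in all 24. Against the labelled sex, the mean of 4 Y-linked genes was only 3.0 to 3.59 on 6 arrays and 6.84 to 8.25 on the other 18. The 6 were all 3 N-RAS-/- sham arrays, 1 N-RAS-/- oil array and 2 N-RAS+/+ sham arrays, which touches each comparison with sham livers. The N-RAS-/- BDL liver N12 averaged 7.95 for 8 skeletal muscle genes, against 3.70 to 4.23 in the other 23 livers. Signals of many members were low, and 28 of the 57 averaged under a log2 value of 5 in the BDL experiment and 35 of 57 in the CCl4 experiment.

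The 200 bases before the start of 7 members with called changes or several motifs show how the motifs known from cell cycle promoters are laid out. They were read from RefSeq (GRCm38.p6), where 47 of the 57 members had an entry. Capitals mark an E2F-type motif (TTCCCGC, where letters 3 and 4 may each be C or G), a CHR motif (TTTGAA or TTCGAA) or a CCAAT box (CCAAT), on either strand.
Mcm6, chr1:128359706-128359905, minus strand: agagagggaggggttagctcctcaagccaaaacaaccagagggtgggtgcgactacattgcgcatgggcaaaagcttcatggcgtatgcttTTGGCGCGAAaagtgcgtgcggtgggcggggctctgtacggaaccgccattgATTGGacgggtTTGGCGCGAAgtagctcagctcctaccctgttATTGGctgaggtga
Rrm1, chr7:102441495-102441694, plus strand: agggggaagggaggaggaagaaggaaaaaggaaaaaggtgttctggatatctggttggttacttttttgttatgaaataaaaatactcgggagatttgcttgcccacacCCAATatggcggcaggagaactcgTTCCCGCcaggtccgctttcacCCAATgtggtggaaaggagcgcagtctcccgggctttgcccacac
Mcm2, chr6:88898781-88898980, minus strand: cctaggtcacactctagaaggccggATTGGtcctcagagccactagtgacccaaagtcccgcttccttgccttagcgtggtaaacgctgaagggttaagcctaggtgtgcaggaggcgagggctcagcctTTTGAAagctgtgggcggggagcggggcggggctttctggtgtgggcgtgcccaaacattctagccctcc
Ccnb2, chr9:70421555-70421754, minus strand: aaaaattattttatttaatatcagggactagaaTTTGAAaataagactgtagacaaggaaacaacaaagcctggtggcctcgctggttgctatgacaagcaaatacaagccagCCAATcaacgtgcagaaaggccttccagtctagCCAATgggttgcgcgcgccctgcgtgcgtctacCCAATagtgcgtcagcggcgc
Prc1, chr7:80294276-80294475, plus strand: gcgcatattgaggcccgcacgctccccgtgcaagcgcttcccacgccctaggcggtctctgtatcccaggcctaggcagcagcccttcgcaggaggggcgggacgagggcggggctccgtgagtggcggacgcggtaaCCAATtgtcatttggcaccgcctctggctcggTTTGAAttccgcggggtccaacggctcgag
Ect2, chr3:27153855-27154054, minus strand: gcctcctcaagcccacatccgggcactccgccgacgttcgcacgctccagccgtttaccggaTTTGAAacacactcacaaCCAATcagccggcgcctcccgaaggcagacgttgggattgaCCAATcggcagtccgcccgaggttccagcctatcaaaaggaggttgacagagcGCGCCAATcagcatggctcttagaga
Cdk1, chr10:69352913-69353112, minus strand: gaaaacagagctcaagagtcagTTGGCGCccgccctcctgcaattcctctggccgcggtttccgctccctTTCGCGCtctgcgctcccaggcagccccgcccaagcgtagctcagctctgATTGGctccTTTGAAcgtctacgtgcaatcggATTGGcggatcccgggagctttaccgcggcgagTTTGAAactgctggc
Mcm6, a subunit of the helicase, and Rrm1, the large subunit of ribonucleotide reductase, held E2F-type motifs and no CHR motif. Mcm2, another helicase subunit, Ccnb2, a B-type cyclin, and Prc1, which bundles microtubules of the central spindle, held CHR motifs and CCAAT boxes and no E2F-type motif. Ect2 and Cdk1 held all 3 kinds, and where an E2F-type motif and a CCAAT box overlap, both were counted.

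In windows of 250 bases before to 50 after the start, 8 of 14 S phase genes and 4 of 28 mitosis genes held an E2F-type motif, against 10.9% of all 27025 genes with a promoter. A CHR motif stood in 3 of 14 S phase genes and 20 of 28 mitosis genes, against 21.7% of all genes. The CCAAT box was common in both classes, in 10 of 14 and 19 of 28, against 41.1%. CHR motif and CCAAT box stood together in 17 of 28 mitosis genes, against 9.65% of all genes. A match describes letters in the window and is not a tested binding site.

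**Figure D1:**
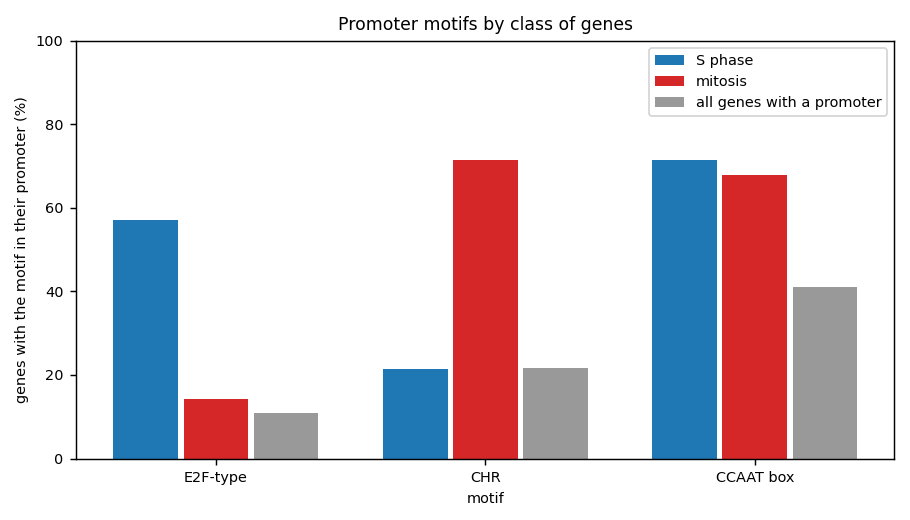
Percent of genes (y axis) whose promoter window holds each motif (x axis), for S phase genes (blue), mitosis genes (red) and all genes with a promoter (grey). E2F-type motifs stood in 57.1% of S phase genes and 14.3% of mitosis genes, and CHR motifs in 21.4% and 71.4%.

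After BDL, 7 members were called as higher in livers that lacked N-RAS, 2 of 11 origin licensing and helicase genes, 1 of 9 mitotic entry genes and 4 of 12 spindle, cytokinesis and exit genes. By limma with Benjamini-Hochberg adjustment over all genes, at an adjusted p under 0.05, 7 of 57 members rose and 0 fell, where 0.525% of all genes rose and 0.18% fell. The 7 were Mcm2, Mcm3, Ccnb2, Prc1, Racgap1, Kif20a and Ect2. Mcm2 alone stayed called when the compared groups were fitted by themselves and when low signals were raised to 32. In these fits the adjusted p was 0.0686 and 0.0977 for Mcm3, 0.174 and 0.176 for Ccnb2, and 0.19 and 0.269 for Ect2. For Prc1, Racgap1 and Kif20a it was 0.09, 0.174 and 0.11 in the compared groups. The methods' t-test called 0 members, and of all genes 0 as higher and 1 as lower. At an unadjusted p under 0.05, 42 members were higher and 0 lower, against 6.74% and 5.26% of all genes. The log2 fold change was positive in 55 of 57, with a median of 0.99, against -0.02 over all genes. In 36 members all 3 N-RAS-/- BDL livers were above all 3 N-RAS+/+ BDL livers and in 0 members below, which held for 8.32% and 8.29% of all genes. The 36 were 3 of 6 G1/S genes, 8 of 18 S phase genes and 25 of 33 mitosis genes.

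**Figure D2:**
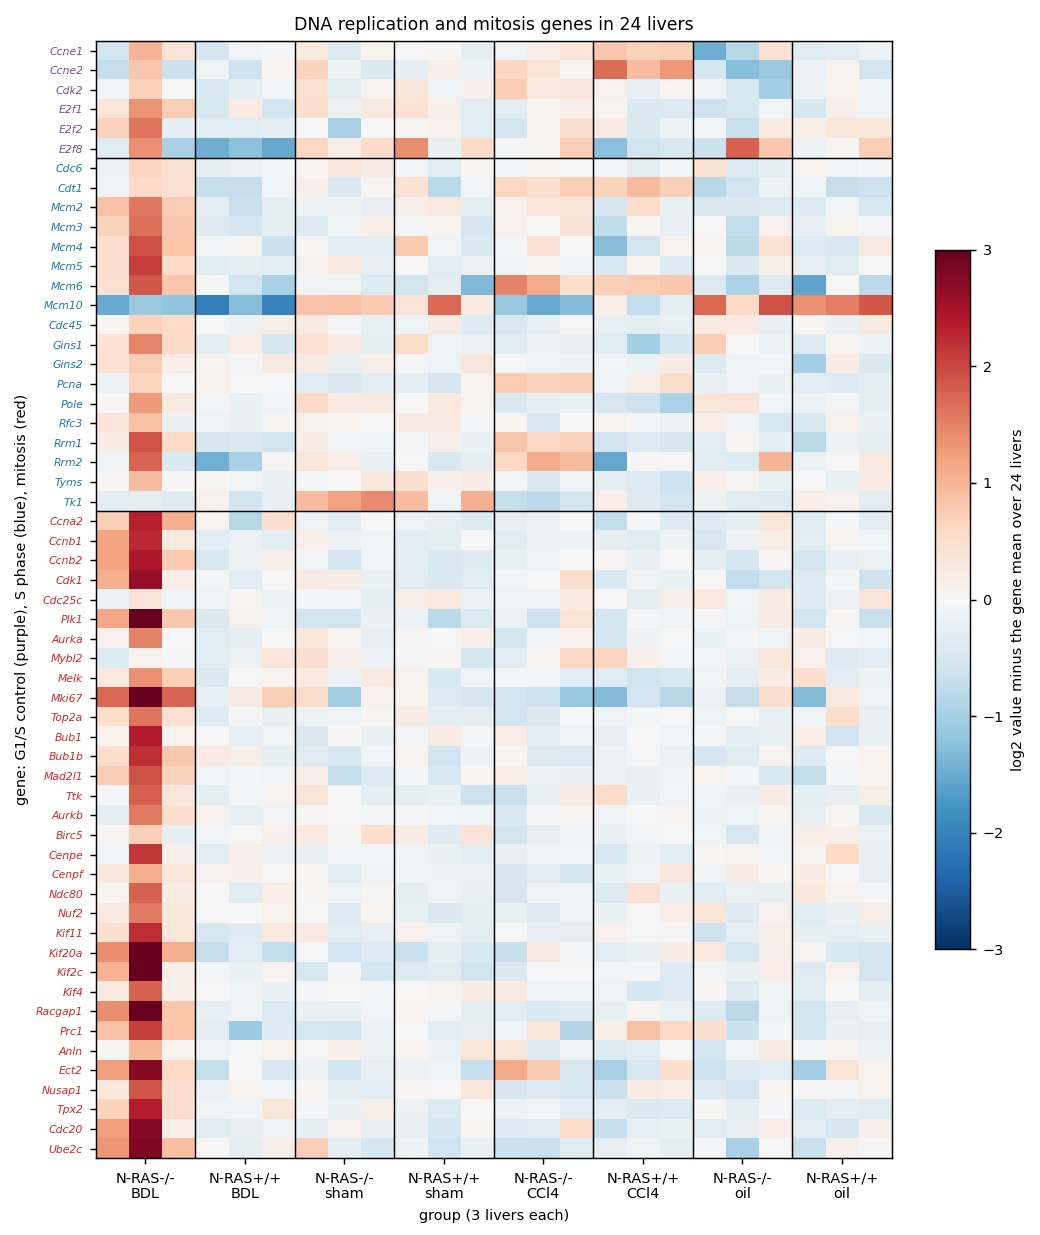
Log2 value of each of the 57 members (y axis) minus its mean over 24 livers, with 3 livers for each group (x axis) and a colour scale from -3 to 3. The strongest red column is N-RAS-/- BDL liver N11, the highest of 24 livers for 48 of 57 members.

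The 3 N-RAS-/- BDL livers differed in how high they were. Liver N11 was the highest of the 3 for 57 of 57 members, where 33.2% of all genes peaked in it, and the highest of all 24 for 48 of 57, where 5.32% of all genes did. Relative to the mean of the N-RAS+/+ BDL livers, the median difference over mitosis genes was 0.64 in N10, 2.23 in N11 and 0.51 in N12. Over S phase genes it was 0.43 in N10, 1.22 in N11 and 0.59 in N12. Each of the 3 livers was thus above that mean in both classes, N11 by the most. Above all 3 N-RAS+/+ BDL livers were 40 members in N10, 55 in N11 and 45 in N12, against 24.5%, 25.8% and 24.9% of all genes. Without N11, 51 of 57 log2 fold changes were positive with a median of 0.56, and 7 members were called, 6 of them among the 7. That fit called 49 of all 21144 genes as higher and 20 as lower.

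Among S phase genes the helicase subunits Mcm2 and Mcm3 rose. Mcm2 read 6.93, 7.06 and 7.75 in N-RAS-/- BDL livers, against 5.51, 5.87 and 5.90 in N-RAS+/+ BDL livers. The log2 fold change was 1.49 ± 0.21 (SE, adjusted p = 0.00387). Mcm3 read 6.65, 6.79 and 7.65 in N-RAS-/- BDL livers, against 5.49, 5.61 and 5.71 in N-RAS+/+ BDL livers (1.43 ± 0.24, adjusted p = 0.0151). For both genes every N-RAS-/- BDL liver was above every N-RAS+/+ BDL liver. The other subunits measured had similar values without passing the test, 1.32 ± 0.35 for Mcm4 (adjusted p = 0.122), 1.39 ± 0.32 for Mcm5 (adjusted p = 0.0685) and 1.58 ± 0.34 for Mcm6 (adjusted p = 0.0556). The 11 origin licensing and helicase genes had a median of 1.04, and the 7 genes of forks and nucleotide supply a median of 0.46. Tk1, the thymidine kinase of nucleotide salvage, was the lowest of the S phase genes at -0.08 ± 0.27.

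Among mitosis genes, 3 that act at the central spindle had large changes. Kif20a, a kinesin needed for cytokinesis, read 5.0, 5.31 and 7.32 in N-RAS-/- BDL livers, against 3.16, 3.21 and 3.59 in N-RAS+/+ BDL livers (2.56 ± 0.43, adjusted p = 0.0141). Racgap1, a subunit of centralspindlin, read 4.98, 5.54 and 7.26 in N-RAS-/- BDL livers, against 3.74, 3.91 and 4.01 in N-RAS+/+ BDL livers (2.04 ± 0.39, adjusted p = 0.0331). Prc1 read 5.29, 5.34 and 6.55 in N-RAS-/- BDL livers, against 3.37, 4.08 and 4.14 in N-RAS+/+ BDL livers (1.86 ± 0.29, adjusted p = 0.00864). None of the 3 genes overlapped between genotypes, and N11 was highest for each. With low signals raised to 32 on the linear scale (log2 5), their log2 fold changes were 0.88, 0.93 and 0.72 and not called. All N-RAS+/+ BDL values of the 3 genes lay under that floor. In N-RAS-/- BDL liver N12, Kif20a (5.0) and Racgap1 (4.98) read near it. Why the calls were lost was not tested.

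Ect2, the exchange factor that activates RhoA at the cleavage furrow, read 5.58, 6.25 and 7.72 in N-RAS-/- BDL livers, against 4.27, 4.52 and 4.99 in N-RAS+/+ BDL livers (1.92 ± 0.40, adjusted p = 0.0448). Ccnb2 read 6.88, 7.27 and 8.52 in N-RAS-/- BDL livers, against 5.63, 5.95 and 6.25 in N-RAS+/+ BDL livers (1.61 ± 0.31, adjusted p = 0.0359). Both genes were apart between the genotypes. The 12 spindle, cytokinesis and exit genes had a median of 1.55, the 9 entry kinases and cyclins 1.44 and the 12 chromosome and checkpoint genes 0.81. Mybl2, a transcription factor of the cell cycle, was the lowest mitosis gene at -0.06 ± 0.23.

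The proliferation markers Mki67, Cdk1 and Ccnb1 were higher by value and missed the threshold, while Pcna, given below, overlapped between genotypes. Mki67, which encodes Ki-67, read 6.80, 6.82 and 8.64 in N-RAS-/- BDL livers, against 4.85, 5.32 and 5.80 in N-RAS+/+ BDL livers (2.10 ± 0.47, adjusted p = 0.064). Cdk1 read 3.94, 4.81 and 6.38 in N-RAS-/- BDL livers, against 3.40, 3.68 and 3.74 in N-RAS+/+ BDL livers (1.44 ± 0.41, adjusted p = 0.155). Ccnb1, which activates it, read 4.17, 5.06 and 6.13 in N-RAS-/- BDL livers, against 3.56, 3.56 and 3.69 in N-RAS+/+ BDL livers (1.52 ± 0.33, adjusted p = 0.0591). In these 3 genes the groups did not overlap. Of the 6 fits that left out 1 of the compared arrays, only that without N12 called Cdk1 and Ccnb1 (1.99, adjusted p = 0.0158, and 1.99, adjusted p = 0.00346). In the others their adjusted p reached 0.322 and 0.162, and Mki67 was called in 0 of 6. All N-RAS+/+ BDL values of Cdk1 and Ccnb1 lay under log2 5. So did the N-RAS-/- BDL values of 3.94 and 4.81 for Cdk1 and 4.17 for Ccnb1.

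The E2F factor E2f2 read 4.87, 5.85 and 6.78 in N-RAS-/- BDL livers, against 4.82, 4.83 and 4.89 in N-RAS+/+ BDL livers (0.99 ± 0.37, adjusted p = 0.3). Pcna, the sliding clamp of the replication fork, read 9.14, 9.30 and 9.95 in N-RAS-/- BDL livers, against 9.29, 9.33 and 9.44 in N-RAS+/+ BDL livers (0.11 ± 0.20, adjusted p = 0.889). The groups overlapped for both genes. G1/S control genes had a median of 0.74, and 0 of 6 was called.

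Single arrays moved these calls. Mcm2 and Prc1 were called in 6 of 6 fits that left out 1 of the compared arrays, Mcm3 in 5 of 6, Kif20a in 4 of 6, Racgap1 in 3 of 6, and Ccnb2 and Ect2 in 2 of 6 each. Fits without N04, N06 and N12 called 2, 3 and 14 members. Of all 21144 genes these fits called 49, 53 and 106 as higher and 28, 20 and 38 as lower. With all 12 arrays, 111 were called as higher and 38 as lower.

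**Figure D3:**
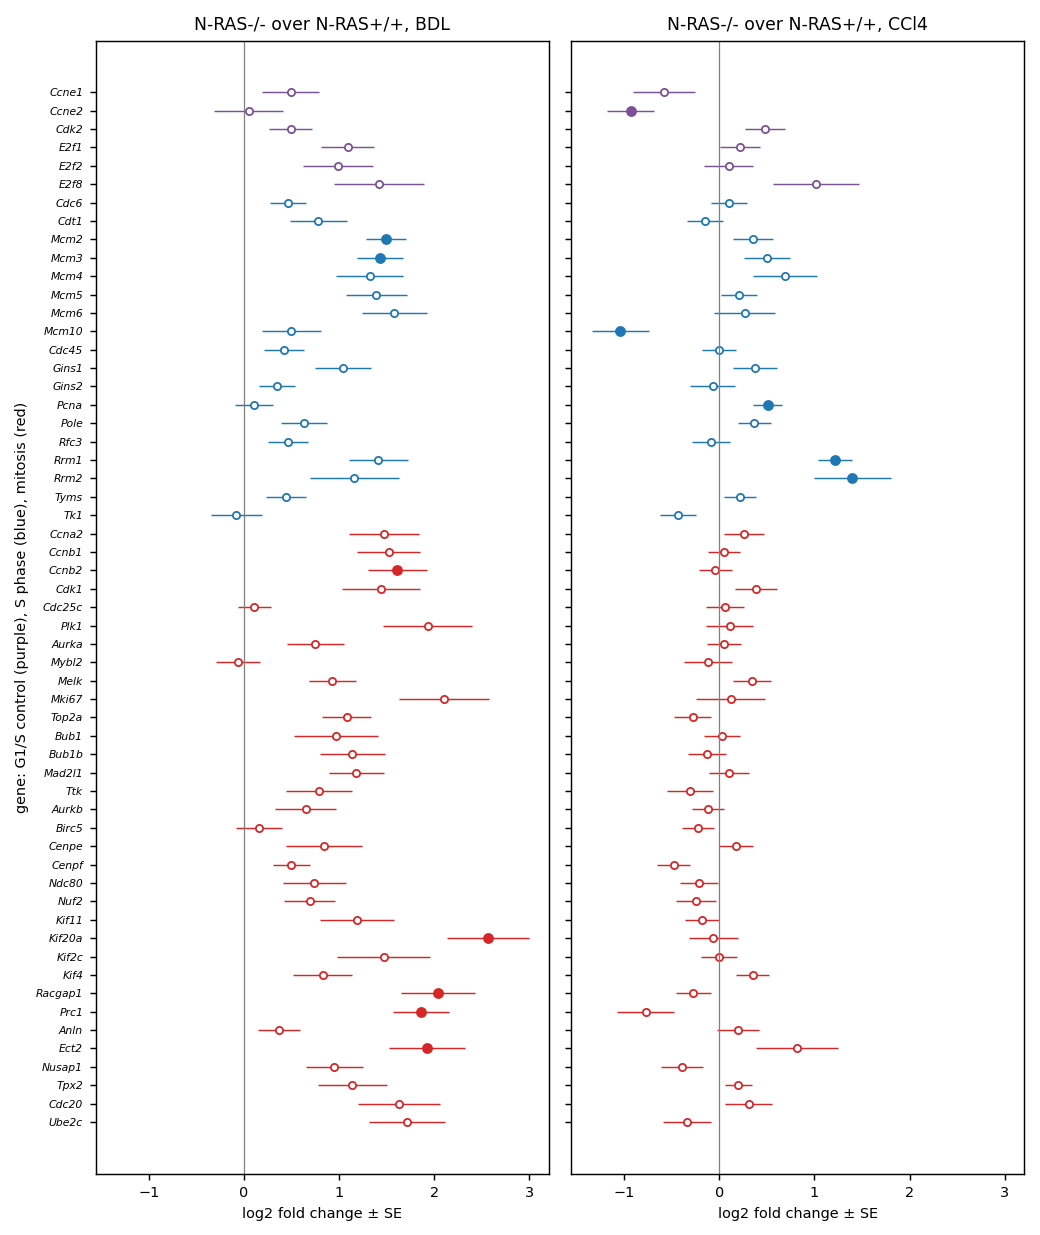
Log2 fold change with its SE (x axis) of each member (y axis), N-RAS-/- over N-RAS+/+, after BDL (left) and CCl4 (right), with G1/S genes in purple, S phase genes in blue and mitosis genes in red. Filled points passed an adjusted p of 0.05, 7 after BDL and 5 after CCl4, and 32 of 33 mitosis genes were above 0 after BDL and 17 of 33 after CCl4.

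**Figure D4:**
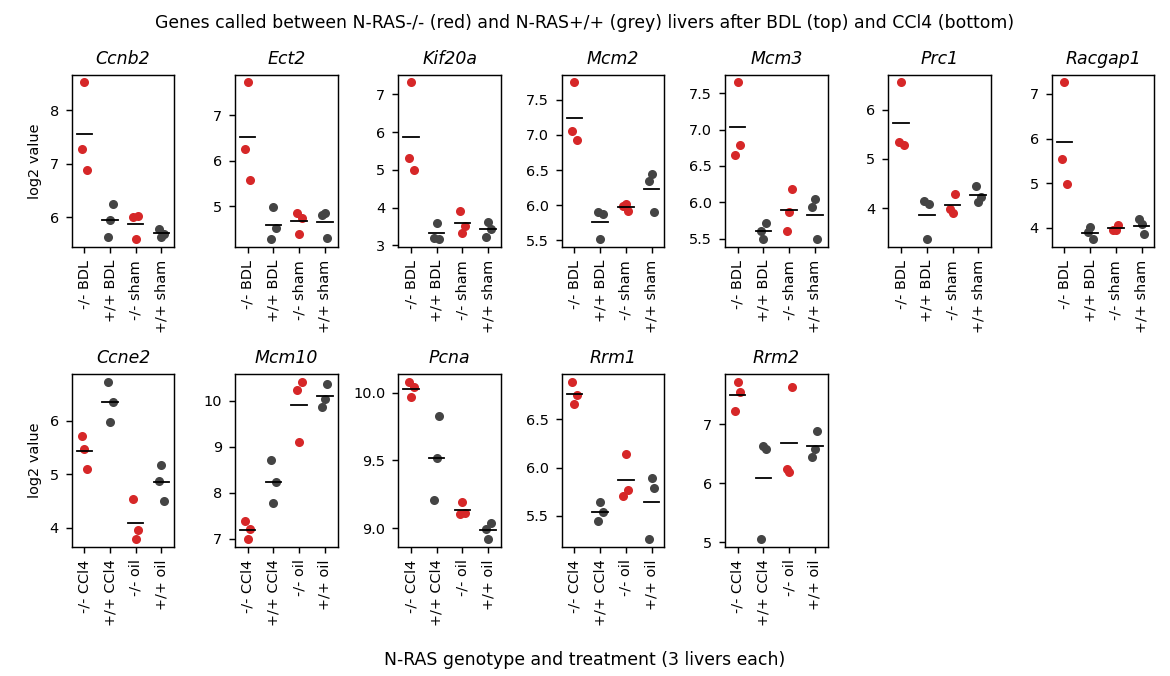
Log2 value (y axis) in each liver of the members called between genotypes, by group (x axis), with N-RAS-/- in red, N-RAS+/+ in dark grey and group means as bars. After BDL (top) all 3 N-RAS-/- BDL livers are above the livers of the other 3 groups for the 7 genes, and after CCl4 (bottom) Ccne2 and Mcm10 are lower in N-RAS-/- CCl4 than in N-RAS+/+ CCl4 livers.

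Set against sham livers, which in the N-RAS-/- group all had low Y-linked signal, BDL livers that lacked N-RAS were higher in many mitosis genes. In N-RAS-/- livers 22 members rose and 2 fell, where 7.18% of all genes rose and 4.05% fell. The risers were 4 S phase genes, all of the MCM helicase (Mcm2, Mcm3, Mcm4 and Mcm6), and 18 mitosis genes. In N-RAS+/+ livers 0 rose and 2 fell, where 4.51% of all genes rose and 2.7% fell, and at an unadjusted p under 0.05 the counts were 0 and 4, against 10.8% and 8.9%. Mitosis genes had a median log2 fold change of 1.09 in N-RAS-/- livers and 0.03 in N-RAS+/+ livers, and S phase genes 0.42 and -0.27.

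Mki67 read 6.80, 6.82 and 8.64 in N-RAS-/- BDL livers, against 4.05, 5.22 and 5.64 in N-RAS-/- sham livers (2.45 ± 0.47, adjusted p = 0.00363). Plk1, the polo-like kinase of mitotic entry, read 5.75, 6.10 and 8.28 in N-RAS-/- BDL livers, against 4.35, 4.35 and 4.74 in N-RAS-/- sham livers (2.23 ± 0.47, adjusted p = 0.00648). Mad2l1, a protein of the spindle checkpoint, read 6.66, 6.74 and 7.90 in N-RAS-/- BDL livers, against 5.27, 5.60 and 6.14 in N-RAS-/- sham livers (1.43 ± 0.29, adjusted p = 0.00529). For these 3 genes BDL and sham livers were apart. Genes named above for the genotype comparison were called here too, with 2.29 ± 0.43 for Kif20a (adjusted p = 0.00314), 1.93 ± 0.39 for Racgap1 (adjusted p = 0.00532) and 1.28 ± 0.21 for Mcm2 (adjusted p = 0.00121). Both comparisons use the same N-RAS-/- BDL livers.

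The Y-linked signal limits this comparison. It was low on all 3 N-RAS-/- sham arrays and high on all 3 N-RAS-/- BDL arrays, so that it cannot be told apart from the operation in N-RAS-/- livers. Within a group of this experiment it varied widely only among N-RAS+/+ sham livers (7.87 in N02, 3.59 in N01 and 3.19 in N03). A term for it thus rests mainly on those livers. In the fit with this term 0 members rose and 1 fell, where 314 of 21144 genes rose and 112 fell. The log2 fold changes in that fit were 2.38 for Mki67, 2.53 for Plk1, 1.76 for Mad2l1, 1.77 for Prc1 and 1.63 for Ccnb2, with adjusted p from 0.108 to 0.2, against 2.45 ± 0.47, 2.23 ± 0.47, 1.43 ± 0.29, 1.66 ± 0.29 and 1.68 ± 0.31 without the term. Those of Mcm2 and Mcm3 were 0.92 (adjusted p = 0.253) and 0.76 (adjusted p = 0.463) with the term, against 1.28 ± 0.21 and 1.14 ± 0.24 without it. With low signals raised to 32, 6 rose, and Kif20a (0.88, adjusted p = 0.447), Racgap1 (0.93, adjusted p = 0.357) and Plk1 (1.71, adjusted p = 0.11) were not called. Of all genes, 1058 rose with that floor. Fits without N08, N09 and N11 called 11, 12 and 13 members as higher, and 1028, 1181 and 1046 of all genes. With all 12 arrays it was 1519 of all genes. The genotype by BDL interaction tests whether the response to BDL differs between genotypes, and it called 0 members (0% of all genes in either direction). At an unadjusted p under 0.05, 27 members were positive and 0 negative, against 3.41% and 3.27% of all genes.

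A few members were lower after BDL. Mcm10, a factor that starts origin firing, read 6.99, 7.32 and 7.40 in N-RAS-/- BDL livers, against 9.29, 9.37 and 9.39 in N-RAS-/- sham livers (-2.12 ± 0.31, adjusted p = 5.19e-04). In N-RAS+/+ livers it read 6.47, 6.50 and 7.23 after BDL and 8.78, 8.92 and 10.21 after sham (-2.57 ± 0.31, adjusted p = 1.63e-04). It was lower in every BDL liver than in any sham liver of its genotype, opposite to Mcm2 and Mcm3 in N-RAS-/- livers.

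Tk1 fell in N-RAS-/- livers, with 5.28, 5.31 and 5.40 in N-RAS-/- BDL livers, against 6.61, 6.86 and 7.07 in N-RAS-/- sham livers (-1.52 ± 0.27, adjusted p = 0.00211). Among N-RAS+/+ sham livers, the arrays of low Y-linked signal read 6.58 and 6.72 for Tk1 and the other array read 5.53. The N-RAS-/- oil array of low Y-linked signal read 5.29, against 5.50 and 5.28 on the other N-RAS-/- oil arrays. With the Y-linked term the change was -0.46 (adjusted p = 0.58). E2f8, a repressor of the E2F family, read 3.85, 3.93 and 4.17 in N-RAS+/+ BDL livers, against 5.19, 6.0 and 6.79 in N-RAS+/+ sham livers (-2.01 ± 0.47, adjusted p = 0.0191), apart between the groups. Without the arrays of low Y-linked signal 1 N-RAS+/+ sham liver was left, at 5.19 and above all 3 N-RAS+/+ BDL livers, and with that lone liver assumed to vary like the other groups the change was -1.20 (adjusted p = 0.528).

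After CCl4, the members that passed the test between genotypes were genes of nucleotide supply, the replication fork, origin firing and G1/S control, and none was a mitosis gene. In all, 3 members rose and 2 fell of 57, where 8.72% of all genes rose and 5.56% fell, so that the members' shares were not above those of all genes. Rrm1 read 6.66, 6.75 and 6.89 in N-RAS-/- CCl4 livers, against 5.44, 5.54 and 5.64 in N-RAS+/+ CCl4 livers (1.22 ± 0.18, adjusted p = 5.05e-04). Rrm2, the small subunit of ribonucleotide reductase, read 7.22, 7.55 and 7.72 in N-RAS-/- CCl4 livers, against 5.06, 6.58 and 6.64 in N-RAS+/+ CCl4 livers (1.40 ± 0.40, adjusted p = 0.0286). Pcna read 9.97, 10.04 and 10.08 in N-RAS-/- CCl4 livers, against 9.21, 9.52 and 9.83 in N-RAS+/+ CCl4 livers (0.51 ± 0.15, adjusted p = 0.0385). All 3 were higher in every N-RAS-/- CCl4 liver.

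Ccne2, a cyclin that activates CDK2 at the G1/S step, read 5.10, 5.48 and 5.71 in N-RAS-/- CCl4 livers, against 5.98, 6.36 and 6.73 in N-RAS+/+ CCl4 livers (-0.93 ± 0.25, adjusted p = 0.0205). Mcm10 read 7.0, 7.22 and 7.38 in N-RAS-/- CCl4 livers, against 7.78, 8.24 and 8.71 in N-RAS+/+ CCl4 livers (-1.04 ± 0.30, adjusted p = 0.0297). These 2 were lower in every N-RAS-/- CCl4 liver. Ccne2 also read 3.79, 3.95 and 4.54 in N-RAS-/- oil livers, against 4.49, 4.88 and 5.17 in N-RAS+/+ oil livers. That change was -0.75, with overlap and not called. The markers Mki67 (0.12 ± 0.36, adjusted p = 0.858), Cdk1 (0.39 ± 0.22, adjusted p = 0.249), Ccnb1 (0.05 ± 0.17, adjusted p = 0.887) and E2f2 (0.10 ± 0.26, adjusted p = 0.844) did not pass the test. Rrm1 was called in 6 of 6 fits without 1 of the compared arrays, Rrm2 in 3 of 6, Ccne2 in 3 of 6, and Pcna and Mcm10 in 1 of 6 each. The floor of 32 ended the calls of Rrm2 (1.40, adjusted p = 0.13) and Mcm10 (-1.04, adjusted p = 0.118), and the fit of the compared groups by themselves that of Pcna (0.51, adjusted p = 0.0835). Without N24 and N32, 2 and 1 members were called, and without N26, N30 or N31, 3. Of all 21144 genes, 1429 and 1493 were called as higher without N24 and N32, and 862 and 889 as lower. Without N26, N30 and N31, 1432, 1278 and 1362 were higher and 918, 781 and 855 lower.

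Set against oil, few members changed after CCl4, among them Cdt1, Mcm6, Ccne2 and Pcna, which rose in both genotypes, and Mcm10, which fell in both. In N-RAS-/- livers 7 members rose and 3 fell, where 13.6% of all genes rose and 9.19% fell. In N-RAS+/+ livers 5 rose and 1 fell, where 8.08% rose and 7.16% fell, so that the members' shares were near or below those of all genes. Of 11 licensing and helicase genes 3 rose with CCl4 in livers without N-RAS and 2 in those with it, and of 6 G1/S genes 2 in each genotype. Cdt1, which loads the helicase at origins, read 7.31, 7.44 and 7.56 in N-RAS-/- CCl4 livers, against 5.98, 6.24 and 6.67 in N-RAS-/- oil livers (1.14 ± 0.19, adjusted p = 5.54e-04). In N-RAS+/+ livers Cdt1 read 7.49, 7.53 and 7.74 after CCl4 and 6.11, 6.18 and 6.69 after oil (1.25 ± 0.19, adjusted p = 5.01e-04). CCl4 and oil livers were apart in both genotypes.

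Mcm6 rose by 1.60 ± 0.32 in N-RAS-/- livers (adjusted p = 0.00204) and 1.56 ± 0.32 in N-RAS+/+ livers (adjusted p = 0.00386). Ccne2 rose by 1.33 ± 0.25 (adjusted p = 0.00107) and 1.51 ± 0.25 (adjusted p = 7.49e-04) in the same order, and 0.43, adjusted p = 0.205 in N-RAS-/- livers with the floor of 32. The rise of Pcna was 0.90 ± 0.15 in N-RAS-/- livers (adjusted p = 6.26e-04), against 0.54 ± 0.15 in N-RAS+/+ livers (adjusted p = 0.0281). These changes thus had the same direction in both genotypes. Rrm1 (0.90 ± 0.18, adjusted p = 0.00186), Cdk2, the kinase of S phase entry (1.0 ± 0.21, adjusted p = 0.00267), and Mcm2 (0.73 ± 0.21, adjusted p = 0.0207) passed the test in N-RAS-/- livers, and Ccne1, another G1/S cyclin (1.02 ± 0.33, adjusted p = 0.0472), in N-RAS+/+ livers.

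Mcm10 fell after CCl4 as after BDL, to 7.0, 7.22 and 7.38 in N-RAS-/- CCl4 livers, against 9.10, 10.24 and 10.41 in N-RAS-/- oil livers (-2.71 ± 0.30, adjusted p = 1.29e-05), and to 7.78, 8.24 and 8.71 in N-RAS+/+ CCl4 livers, against 9.87, 10.04 and 10.37 in N-RAS+/+ oil livers (-1.85 ± 0.30, adjusted p = 7.19e-04). Pole, the leading strand polymerase (-0.53 ± 0.17, adjusted p = 0.0308), and Cenpf, a kinetochore protein (-0.51 ± 0.17, adjusted p = 0.0462), fell in N-RAS-/- livers. The calls of Ccne1, Pole and Cenpf held in 0 of 6, 2 of 6 and 1 of 6 fits without 1 of the compared arrays. The genotype by CCl4 interaction called 0 members, where 1.32% of all genes were called as positive and 1.04% as negative. At an unadjusted p under 0.05, 3 members were positive and 1 negative, against 8.93% and 8.01% of all genes. Under 7 other settings Rrm1 was called, with a difference from 1.0 to 1.19 and an adjusted p from 0.0229 to 0.0462, among them the fits without N21 and without N28. The fit without N28 and that without arrays of low Y-linked signal are the same, since no other array of this experiment had low Y-linked signal. Mcm10 was called with the Y-linked term (-1.27, adjusted p = 0.0433). For Rrm1 and Mcm10 a difference in the response to CCl4 thus depended on the setting.

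Without injury, no member passed the test between genotypes. In sham livers 0 of 57 rose and 0 fell (0.246% and 0.18% of all genes), and at an unadjusted p under 0.05 the counts were 0 and 0 (4.26% and 3.62%). In oil livers 0 rose and 0 fell (0.534% and 0.312%), and at an unadjusted p under 0.05 1 was higher and 2 lower (7.03% and 5.43%). The median log2 fold changes were 0.07 in sham and 0.05 in oil livers. In oil livers members ran from -0.75 for Ccne2 to 0.44 for E2f8, and the 6 G1/S genes had a median of -0.39.

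S phase and mitosis genes were then compared within each liver, as the mean over a class of log2 values relative to the mean of each gene over 24 livers. In N-RAS-/- BDL livers N10, N11 and N12 mitosis genes averaged 0.59, 2.05 and 0.46, against -0.20 to -0.02 in N-RAS+/+ BDL livers. S phase genes averaged 0.12, 1.07 and 0.26, against -0.37 to -0.32. For both classes the genotypes did not overlap after BDL. The difference, S phase minus mitosis, was -0.47, -0.99 and -0.20 in N-RAS-/- BDL livers and -0.14, -0.22 and -0.30 in N-RAS+/+ BDL livers, with overlap.

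After CCl4 the 2 classes differed in another way. S phase genes averaged 0.05 to 0.10 in N-RAS-/- CCl4 livers and -0.27 to -0.13 in N-RAS+/+ CCl4 livers, without overlap, while mitosis genes averaged -0.22 to -0.12 and -0.27 to -0.09, with overlap. S phase minus mitosis was 0.29, 0.23 and 0.22 in N-RAS-/- CCl4 livers and 0.00, -0.01 and -0.04 in N-RAS+/+ CCl4 livers, without overlap. As medians of the log2 fold changes between genotypes, S phase minus mitosis was -0.43 after BDL and 0.24 after CCl4. With low signals raised to log2 5 these were 0.01 and 0.00.

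**Figure D5:**
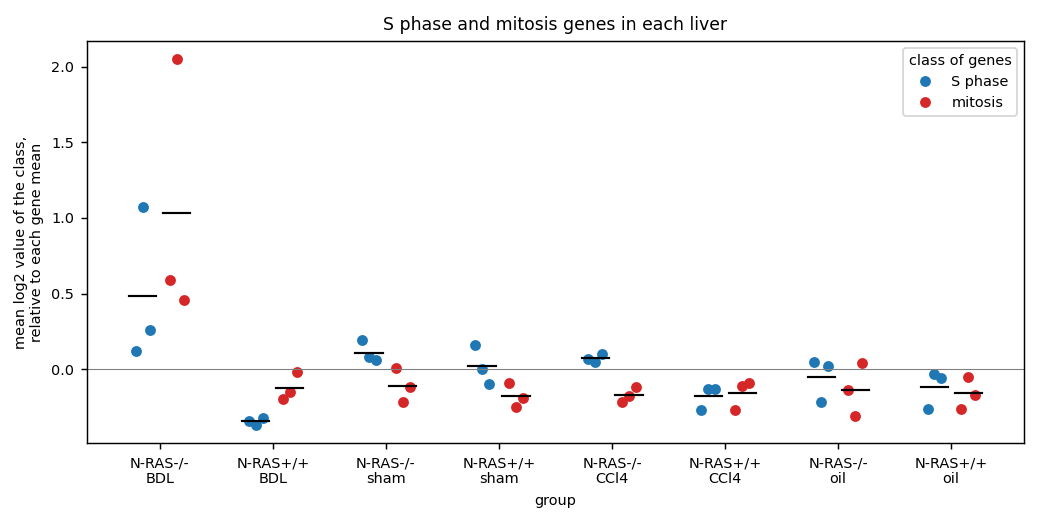
Mean log2 value of S phase genes (blue) and mitosis genes (red) in each liver relative to each gene's mean over 24 livers (y axis), by group (x axis), with group means as bars. The N-RAS-/- BDL livers read 0.46 to 2.05 for mitosis genes, above each of the other 21 livers.

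The genotype effects after the 2 injuries were set against each other in a fit of all 24 arrays. The effect of N-RAS-/- over N-RAS+/+ after BDL minus that after CCl4 was called as positive in 11 members and negative in 0, where 2.97% of all genes were positive and 4.62% negative. They were 9 mitosis genes, Mcm2 and Mcm10. The response of N-RAS-/- livers to BDL minus that to CCl4 was positive in 14 members, all of mitosis, and negative in 2, where 4.74% of all genes were positive and 4.4% negative. Injury and experiment cannot be told apart in these comparisons.

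Further lists held cell cycle genes that are not among the 60. Between genotypes after BDL, 0.525% of all genes rose and 0.18% fell. Of 41 other replication genes 1 rose in N-RAS-/- over N-RAS+/+ livers, Timeless of the fork protection complex (1.06 ± 0.20, adjusted p = 0.0331). Of 48 other mitosis genes 1 rose, Cep55, which acts in abscission (0.93 ± 0.18, adjusted p = 0.033). The medians of the 2 lists were 0.25 and 0.62. Of 20 CDK inhibitors and checkpoint genes 1 rose, Rbl1, a pocket protein that binds E2F factors (1.46 ± 0.25, adjusted p = 0.0156), and of 10 other G1 cyclins and kinases 0. Against sham, BDL in N-RAS-/- livers raised 3 other replication genes, led by Dbf4, which activates the kinase CDC7 (1.24 ± 0.23, adjusted p = 0.00325), and 12 other mitosis genes, led by Cep55 (1.11 ± 0.18, adjusted p = 0.00111). It also raised 4 of the 20 inhibitor and checkpoint genes, among them Cdc25a, a phosphatase that activates CDK2 (2.29 ± 0.33, adjusted p = 4.21e-04). In that comparison 7.18% of all genes rose. In N-RAS+/+ livers BDL raised 0 of 41 other replication genes, 0 of 48 other mitosis genes and 1 of 20 inhibitor and checkpoint genes, where 4.51% of all genes rose.

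Between genotypes after CCl4, 8.72% of all genes rose and 5.56% fell. Of 41 other replication genes 8 rose in N-RAS-/- over N-RAS+/+ livers and 3 fell. Those with the smallest p were Orc3, a subunit of the origin recognition complex (1.24 ± 0.14, adjusted p = 8.85e-05), Tipin, the partner of Timeless (1.27 ± 0.20, adjusted p = 7.67e-04), and Asf1b, a histone chaperone (1.05 ± 0.17, adjusted p = 0.00108). Of 48 other mitosis genes 2 rose and 2 fell, each a share below that of all genes. They included Troap, which binds the spindle (-0.93 ± 0.21, adjusted p = 0.00833), and Smc4 of condensin (0.79 ± 0.19, adjusted p = 0.011). Of inhibitors and checkpoint genes 2 rose and 3 fell, with Rbl1 (1.32 ± 0.28, adjusted p = 0.00645) higher and Cdkn1c, the CDK inhibitor p57 (-0.70 ± 0.14, adjusted p = 0.00377), and Btg2, an antiproliferative gene (-1.57 ± 0.36, adjusted p = 0.00876), lower. Of other G1 genes 2 rose and 1 fell, with E2f4 (0.71 ± 0.18, adjusted p = 0.0155) higher and Myc (-0.90 ± 0.24, adjusted p = 0.0209) lower.

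Cdkn1a, the CDK inhibitor p21, read 9.30, 10.51 and 10.95 in N-RAS-/- BDL livers, against 10.46, 10.53 and 11.08 in N-RAS+/+ BDL livers, with overlap (-0.44 ± 1.01, adjusted p = 0.917). In N-RAS-/- sham livers and the N-RAS+/+ sham livers of low Y-linked signal it read 5.93 to 8.56, and in the other N-RAS+/+ sham liver 11.06. The N-RAS-/- oil array of low Y-linked signal read 10.64, between the other N-RAS-/- oil arrays (10.43 and 11.29). After CCl4 it read 11.34, 11.89 and 11.92 in N-RAS-/- CCl4 livers, against 10.93, 10.97 and 11.11 in N-RAS+/+ CCl4 livers, apart between genotypes without passing the test (0.71 ± 0.29, adjusted p = 0.118).

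Since the RNA was of whole liver, markers of cell types were read beside these genes. Between N-RAS-/- BDL and N-RAS+/+ BDL livers 0 of 8 hepatocyte, cholangiocyte, stellate cell, macrophage, neutrophil, T and NK cell, B and plasma cell and endothelial cell markers each passed the test. The macrophage list averaged 8.54 to 9.0 in N-RAS-/- BDL livers and 8.10 to 8.61 in N-RAS+/+ BDL livers, and N11 was the highest. The neutrophil list averaged 5.57 to 6.19 and 5.24 to 5.39, without overlap and with N11 the highest. The stellate cell list averaged 6.95 to 8.08 in N-RAS-/- BDL livers and 6.81 to 7.11 in N-RAS+/+ BDL livers, the endothelial list 7.36 to 7.94 and 6.46 to 7.61, the cholangiocyte list 6.28 to 7.46 and 6.53 to 7.49, and the T and NK cell list 4.37 to 4.53 and 4.41 to 4.49. These 4 overlapped. Against sham, BDL in N-RAS-/- livers raised 6 of 8 macrophage, 6 of 8 cholangiocyte, 5 of 8 stellate cell and 5 of 8 neutrophil markers. There 2 of 8 T and NK cell markers fell, and 1 of 8 B and plasma cell markers rose and 2 fell (all genes, 7.18% and 4.05%). In N-RAS+/+ livers BDL raised 5 of 8 macrophage, 8 of 8 cholangiocyte, 4 of 8 stellate cell and 0 of 8 neutrophil markers (all genes, 4.51%). There 2 of 8 B and plasma cell, 0 of 8 T and NK cell and 1 of 8 hepatocyte, stellate cell and endothelial markers each fell (all genes, 2.7%). Low Y-linked signal on sham arrays touches both comparisons. Between genotypes after CCl4, 3 of 8 endothelial, 2 of 8 stellate cell, 1 of 8 macrophage and 1 of 8 T and NK cell markers rose (all genes, 8.72%). In that comparison 2 of 8 hepatocyte, 1 of 8 cholangiocyte and 1 of 8 neutrophil markers fell (all genes, 5.56%). The part of these cells in the changes of cell cycle genes was not tested.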

How the data were processed

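RNA of 24 livers was measured on expression arrays, 3 for each of 8 groups (the labels name both a biotin label and a Cy3 kit). The authors deposited log2 values per probe set and array, and the submitters' processing notes name MAS5 without a role; the normalization between arrays is not given in the sources used here. A workbook, also deposited, holds group means as linear signal, which equal the means of the arrays, and the authors' own ratios and p-values, which were not used; gene symbols were taken from it. Of 22206 probe sets, 21367 carried 1 symbol, and for 143 genes with several probe sets the brightest was kept, which left 21144 genes. Array medians were 5.55 to 5.70, and the number of arrays limits the precision.

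The 12 arrays of an experiment were fitted with limma 3.58.1 (R 4.3.3; 1 coefficient per group, contrasts, eBayes), with Benjamini-Hochberg adjustment over all genes. Alternatives were other sets of arrays, centring on medians, a floor of 32, quantile normalization, omission of genes with means under the 40th percentile (the filter), trended eBayes, array weights, the methods' t-test, the mean of probe sets, a term for Y-linked signal, and each array left out. In simulated data for the genotypes after BDL, with 21144 genes, 74% of changes of 1 and 95% of changes of 2 log2 units were called. Whether these shares hold for the members, which differed in height between the N-RAS-/- BDL livers, was not tested. Of the 57 members, with a median log2 fold change of 0.99 in that comparison, 7 were called. Genes named are called members (up to 12 per contrast by adjusted p), Mki67, Pcna, Cdk1, Ccnb1, E2f2 and Cdkn1a, the extremes of a class, and up to 3 genes of each further list; Mcm4, Mcm5 and Mcm6 were also named after their values were seen. The members and lists were chosen with earlier results of these data known, and the comparisons between experiments and the class without Mcm10 were added after the data were seen.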

Additional observations from a re-analysis of the deposited data

Results flagged for a closer look

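Both sets of results below come from tests of a difference between the experiments, which were chosen after seeing the data. The genotype effect (N-RAS-/- over N-RAS+/+) after BDL differed from that after CCl4 in 11 members, all with a positive difference. For Mcm10 the effect itself was 0.50 ± 0.31 after BDL, not called, and -1.04 ± 0.30 after CCl4, called as lower. On the log2 scale the differences were 2.63 for Prc1, 2.31 for Racgap1, 2.62 for Kif20a, 1.65 for Ccnb2, 1.36 for Top2a, 2.05 for Ube2c, 0.98 for Cenpf, 1.47 for Ccnb1, 1.13 for Mcm2, 1.34 for Nusap1 and 1.54 for Mcm10. The adjusted p ran from 0.00132 for Prc1 to 0.0445 for Mcm10 (limma, 24 arrays). Prc1, Racgap1, Kif20a, Ccnb2, Top2a and Ube2c were called in all 12 fits that left out 1 of the compared arrays, and the other 5 genes were not. With low signals raised to 32, 3 of the 11 were still called (Ccnb2, Ube2c and Mcm2), and Prc1 (0.86, adjusted p = 0.102), Racgap1 (0.93, adjusted p = 0.325), Kif20a (0.88, adjusted p = 0.424) and Top2a (0.70, adjusted p = 0.157) were not. Each experiment had its own control animals, and injury and experiment cannot be told apart.

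The response of N-RAS-/- livers to BDL (over sham) differed from that to CCl4 (over oil) in 16 members. The differences in favour of BDL were 1.23 for Cenpf, 3.10 for Mki67, 2.43 for Kif20a, 2.37 for Plk1, 1.54 for Ccnb2, 1.87 for Racgap1, 1.82 for Prc1, 1.91 for Ube2c, 1.50 for Bub1b, 1.36 for Mad2l1, 1.58 for Ccna2, 1.16 for Top2a, 1.35 for Ccnb1 and 1.92 for Kif2c. Those in favour of CCl4 were -1.14 for Tk1 and -1.54 for Ccne2. The adjusted p ran from 0.00328 to 0.0429. With low signals raised to 32, Mki67, Ccnb2, Ube2c and Ccna2 were still called. Cenpf (0.20, adjusted p = 0.551), Kif20a (0.88, adjusted p = 0.41), Plk1 (1.65, adjusted p = 0.0854), Racgap1, Prc1, Bub1b, Mad2l1 and Top2a were not. Of 12 fits without 1 of the compared arrays, 7 called Ube2c, 6 each Bub1b, Mad2l1 and Ccna2, and 5 Top2a. All 12 called Cenpf, Mki67, Kif20a, Plk1, Ccnb2, Racgap1 and Prc1. The N-RAS-/- sham arrays used here all had low Y-linked signal, whose part in these differences was not tested.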

How the results depend on the processing

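No paired analysis was possible because no groups share replicate numbers. The t-test and the fit of the compared groups alone were not run for interactions, nor the fit without the arrays of low Y-linked signal where a group would be lost. In the genotype comparison after BDL, 1 member (Mcm2) was called with the compared groups alone and with the floor of 32, 21 with all 24 arrays, 4 with the filter at the 40th percentile and with trended eBayes, 14 without N12 and 0 by the methods' t-test. Over all genes, these settings in the same order called 34, 53, 200, 113, 147, 106 and 0 as higher. As lower they called 22, 26, 66, 43, 60, 38 and 1. The filter kept 12686 genes, with 33 of the 57 members in the BDL and 23 in the CCl4 experiment. Prc1, Kif20a and Racgap1 were not kept in the BDL experiment. Leaving out low Y-linked arrays gave the same results here as the compared groups alone and is not a separate check. After CCl4 the genotype comparison called 3 with all arrays, the floor or trended eBayes and 1 by the t-test. For BDL over sham in N-RAS-/- livers 15 were called with the filter, 8 with the floor, 2 by the t-test and 1 with the Y-linked term. In N-RAS+/+ livers 1 was called with the floor, trended eBayes, the Y-linked term or low Y-linked arrays left out, and 0 by the t-test. For CCl4 over oil the floor gave 6 and the t-test 4 in N-RAS-/- livers, and the t-test 1 in N-RAS+/+ livers. The CCl4 interaction called 1 member, Rrm1, with median centring, the filter, array weights or low Y-linked arrays left out, and 2 with the Y-linked term, Rrm1 and Mcm10. With the floor 5 members were called in the difference of genotype effects, 3 of them among the 11, and 4 in that of injury responses. The cause of these changes was not tested.

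With each array left out in turn, calls ranged from 2 to 14 for the genotypes after BDL, 1 to 5 after CCl4, 13 to 30 and 1 to 3 for BDL over sham in N-RAS-/- and N-RAS+/+ livers, 7 to 11 and 4 to 7 for CCl4 over oil, 0 to 1 for the CCl4 interaction, 7 to 19 for the difference of genotype effects (7 without N11, N26 or N30, 18 without N10 and 19 without N12) and 8 to 19 for that of injury responses (8 without N08 or N31, 10 without N11, N29 or N30). S phase minus mitosis ranged from -0.60 to -0.18 for the genotypes after BDL, 0.15 to 0.37 after CCl4, -0.12 to 0.07 in sham and -0.05 to 0.13 in oil livers, -0.86 to -0.32 and -0.44 to -0.21 for BDL over sham in N-RAS-/- and N-RAS+/+ livers, and 0.09 to 0.32 and -0.19 to -0.04 for CCl4 over oil. Reversed signs, all of values not called, were found for Pcna after BDL (-0.14 to 0.27, with -0.14 without N11) and after CCl4 for Mki67 (-0.07 to 0.30, -0.07 without N24) and E2f2 (-0.15 to 0.37, -0.06 without N25 and -0.15 without N32).

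The filter kept 33 members in the BDL and 23 in the CCl4 experiment, so its medians are over fewer genes. It gave S phase minus mitosis values of -0.77 for the genotypes after BDL, 0.33 after CCl4, -1.12 for BDL over sham in N-RAS-/- livers, and 0.61 and -0.20 for CCl4 over oil in N-RAS-/- and N-RAS+/+ livers. The floor gave 0.01, 0.00, -0.05, 0.00 and 0.00 in that order, and -0.15 for BDL over sham in N-RAS+/+ livers. Genes under the floor in both groups have no change there by construction. For the genotypes after CCl4, quantile normalization gave 0.17 and array weights 0.30. The Y-linked term gave 0.08 in sham livers and 0.07 for CCl4 over oil in N-RAS-/- livers, where leaving out low Y-linked arrays gave 0.09. Without Mcm10 the value for CCl4 over oil in N-RAS+/+ livers was -0.08.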
